A study of Homo sapiens with 18 samples.

Results

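The genes described here are 36 nucleolar genes of ribosome biogenesis, given as a list of gene names and matched by name to the rows of the array table, in which each row, or feature, is 1 Entrez gene. All 36 were measured, out of 23536 features, and none was lost to a filter. Their level is given beside that of MYC, since many of them are known targets of this transcription factor.

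RNA was studied from 3 human embryonic stem cell (hESC) lines, H9, HS360 and HS401, which are established lines derived from early embryos. Each line was cultured in normoxia (21% O2) or hypoxia (4% O2) for 2 h, 24 h or 7 d, which gives 6 groups of 3 arrays, 1 array for each line and group, and 18 arrays in all. The cultures grew without feeders on Matrigel in mTeSR1 medium, after stock culture of the lines on human foreskin fibroblasts. Per the study's methods, plates for the shorter exposures stayed in normoxia for longer before the transfer, while the 7 d plates were transferred soon after seeding. At harvest the 2 h and 24 h plates had been in culture for about as long as each other and the 7 d plates for longer, so that in comparisons of 7 d with 2 h within an oxygen level exposure time and time since seeding cannot be told apart. Values are log2 intensities, and where 3 values follow one another they belong to H9, HS360 and HS401, in this order.

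Ribosomes are built in the nucleolus. RNA polymerase I transcribes the long ribosomal RNA precursor, small nucleolar RNPs (snoRNPs) guide its chemical modification, and large sets of assembly factors then cut, fold and package it with ribosomal proteins into the small and the large ribosomal subunit. MYC binds DNA with its partner MAX at the E-box CACGTG and is a known activator of genes at each of these steps, and fast growing cells such as hESCs have prominent nucleoli. The question was how these genes stood while the mRNA level of MYC changed with oxygen.

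The MYC/MAX E-box was first looked for in the promoters, because it is a sequence that MYC binds with MAX. RefSeq promoter windows (GRCh38.p14, 250 bases before to 50 bases after the gene start) were matched for 29 of the 36 genes. The 7 genes not matched were NOP58, NOLC1, RRP12, BOP1, RRS1, RRP1B and DDX18. CACGTG, which reads the same on both strands, stood in 10 of the 29 windows (34.5%). It stood in 7.43% of all 27305 RefSeq windows, in 8.81% of the 15380 windows of genes on the array, and in 31 of 80 windows (38.8%) of the other ribosome biogenesis genes described at the end. The 30 bases around each of the 10 E-boxes are shown 5′ to 3′ on the strand of the gene, with the E-box in capitals.
BYSL (chr6:41921515-41921544, plus strand): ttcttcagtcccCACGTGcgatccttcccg
FBL (chr19:39846356-39846385, minus strand): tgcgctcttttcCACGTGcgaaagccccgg
MYBBP1A (chr17:4555340-4555369, minus strand): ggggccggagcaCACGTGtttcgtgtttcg
NOP14 (chr4:2963374-2963403, minus strand): tccgcggcccggCACGTGtcttagggtagc
NOP2 (chr12:6568242-6568271, minus strand): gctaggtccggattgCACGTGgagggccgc
PES1 (chr22:30591880-30591909, minus strand): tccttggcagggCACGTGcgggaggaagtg
PNO1 (chr2:68157885-68157914, plus strand): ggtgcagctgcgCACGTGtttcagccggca
RRP9 (chr3:51941892-51941921, minus strand): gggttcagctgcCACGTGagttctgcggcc
UTP20 (chr12:101280083-101280112, plus strand): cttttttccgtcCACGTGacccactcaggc
WDR43 (chr2:28894658-28894687, plus strand): cgcacggacgaaCACGTGgctgcagcgggg
All 10 E-boxes began between 20 bases before and 50 bases after the gene start, from 10 bases before it in UTP20 to 36 bases after it in NOP2. Of the 1355 windows with CACGTG among the genes on the array, 283 (20.9%) held one in that stretch, whose bounds were set after the positions were seen. A match to these letters is a description of the sequence and does not show that MYC was bound there.

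All 36 genes were measured well within the range of the array. Their mean level over the 18 arrays lay between the percentiles 66.6 and 99.1 of all features, with a median percentile of 88.65. All 10 hESC markers were above the median feature. Of the fibroblast markers 9 of 10 were above it too, and the mean of this marker list lay between 9.43 and 10.48 on the arrays of 2 h and between 8.43 and 9.38 on those of 7 d. The median intensity of an array lay between 131.6 and 160.9. On 5 arrays the lower quartile of log2 intensity stood at 5.64 to 5.70, against 5.89 to 6.17 on the others: those of H9 in hypoxia at 2 h and 24 h, HS401 in normoxia at 2 h, and HS401 in both oxygen levels at 24 h. Medians and counts over the 36 genes that rest on these arrays are given with and without them, and with 3 arrays in a group the precision of every value is limited. HK2, PFKFB4, PDK1, DDIT4, BHLHE40 and INSIG2, 6 hypoxia-responsive genes that the study picked on these samples, all passed the study's thresholds as higher in hypoxia at each time point, which is no independent evidence of their direction. None of the 6 passed an adjusted p of 0.05 at a single time point (smallest limma adjusted p 0.531 at 2 h, 0.2425 at 24 h and 0.1455 at 7 d). Over the mean of the time points all 6 did.

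MYC mRNA was higher in hypoxia at 7 d. Its values at 7 d were 8.19, 8.25 and 8.61 in normoxia and 9.64, 9.18 and 9.54 in hypoxia. Every hypoxia array lay above every normoxia array. The difference was 1.10 (SE 0.15, 95% interval 0.79 to 1.42, limma adjusted p = 0.0339). The call at the study's thresholds held under all 14 alternatives, while the adjusted p lay between 0.008771 and 1 and was under the threshold in 6 of them. It was 1 without H9, 0.1056 without HS360, 0.3895 without HS401 and 0.06762 with no replicate block. At 24 h the values were 8.63, 8.81 and 8.79 in normoxia and 9.19, 9.05 and 9.46 in hypoxia, which do not overlap either. The difference of 0.49 was under the study's fold change of 1.5 and did not pass the adjusted threshold (SE 0.15, limma adjusted p = 1). The paper calls MYC mRNA significantly raised by 24 h on its arrays and also reports raised MYC by RT-PCR. The adjustment of its p is not stated, so that p and the adjusted p given here may not be the same measure. At 2 h, with 8.87, 9.05 and 8.82 against 8.89, 9.03 and 8.95, the groups overlapped and the difference was 0.04. Between 2 h and 7 d the level in normoxia moved by -0.56 (limma adjusted p = 0.09016) and that in hypoxia by 0.50 (limma adjusted p = 0.08222), neither past the adjusted threshold.

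None of the 36 genes was called between oxygen levels at 2 h or at 24 h, where few features of the whole array were. At 2 h their hypoxia effects ranged from -0.15 to 0.26 with a median of 0.01, and 19 of 36 were above 0, where all features had a median of 0.00 and 49.7% were above 0. The study's thresholds were a fold change over 1.5 and a p under 0.01, whose adjustment its methods do not state and which was applied here without adjustment. By limma no gene passed them, beside 0.0722% of all features called higher and 0.0127% called lower, and none passed the adjusted p of 0.05, as no feature did. None reached an unadjusted p under 0.05, beside 0.493% higher and 0.289% lower over all features. At 24 h the effects ranged from -0.25 to 0.15 with a median of -0.04, and 14 of 36 were above 0, beside 40.7% of all features. Again none passed the study's thresholds (0.378% of all features higher and 0.0425% lower), the adjusted p (0.00425%) or an unadjusted p under 0.05 (1.87% higher and 0.824% lower). No gene had all hypoxia arrays above or below all normoxia arrays, which 1.08% and 0.769% of all features had at 2 h and 1.63% and 1.01% at 24 h. The line medians at 2 h were 0.10, 0.06 and -0.14, beside -0.12, -0.01 and 0.12 over all features. In HS401 the normoxia array of 2 h and in H9 the hypoxia array of 2 h had the low lower quartile, and the part of this in the line medians was not tested. Without the 5 such arrays the median effect was 0.04 at 2 h, with 23 of 36 above 0, and no gene was called. At 24 h it was -0.14, with 12 above 0. Only HS360 then kept its arrays of both oxygen levels at 2 h and at 24 h, and its array alone stood for hypoxia at 24 h. In this HS360 pair of 24 h the median difference was -0.03. With 1 line left out the median lay between -0.04 (without H9) and 0.09 (without HS401) at 2 h and between -0.09 (without H9) and 0.01 (without HS401) at 24 h.

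At 7 d, when MYC mRNA was higher in hypoxia, 1 of the 36 genes was called lower in hypoxia and none higher. The gene called lower was NIP7, and at the same thresholds 0.357% of all features were called lower and 0.51% higher. None passed the adjusted p of 0.05, which 0.0212% of all features did. At an unadjusted p under 0.05 the fit gave 3 lower genes (NIP7, NOP2 and NOP56) and none higher, beside 3.71% of all features lower and 3.39% higher. Without H9 this gave 1 lower gene, without HS360 5, and without HS401 3 lower and 1 higher. The share of all features at that p was not counted in these fits. The effects ranged from -0.60 to 0.22 with a median of -0.11, and 12 of 36 (33.3%) were above 0. Over all features the median was 0.06 and 61.4% were above 0, and over the 11767 features above the median level these values were 0.00 and 50.5%. The median over the 36 genes was -0.12, -0.07 and -0.15 in the 3 lines, beside 0.14, 0.05 and -0.02 over all features. In all 3 lines 13 genes were lower and 3 higher in hypoxia, where 14.2% and 25.0% of all features were. Of the 11767 features above the median level, where all 36 genes lie, 2563 were lower and 2551 higher in all 3 lines. At an unadjusted p under 0.05, 680 of these features were lower and 408 higher. All hypoxia arrays lay below all normoxia arrays in 5 genes (POLR1A, NOP58, WDR12, NOP2 and NIP7), beside 4.03% of all features, and above them in 1 (BOP1), beside 10.7%.

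**Figure D1:**
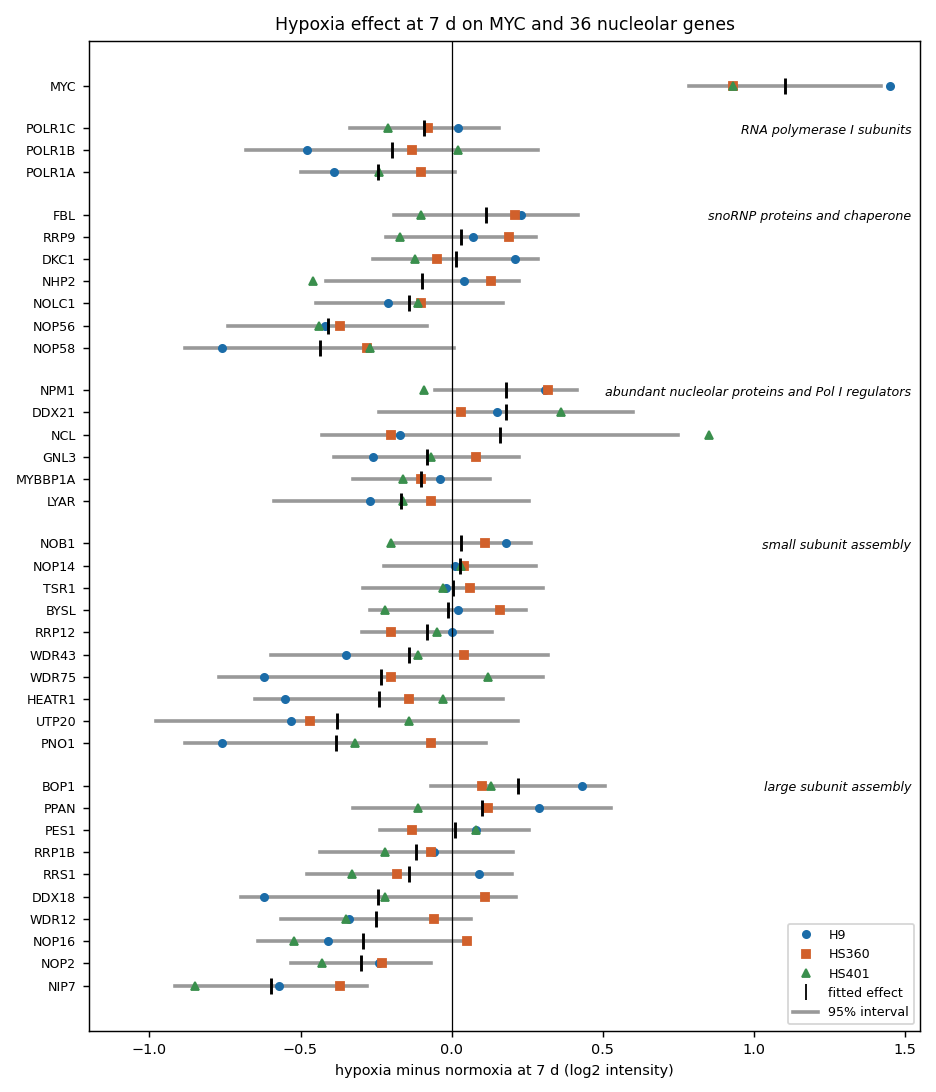
Hypoxia minus normoxia at 7 d on the log2 intensity scale for MYC and the 36 nucleolar genes, ordered by role. Coloured points are the differences in the 3 lines, the black tick is the fitted effect and the grey bar its 95% interval. MYC stands alone at 1.10, while the 36 genes lie between -0.60 and 0.22.

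NIP7, an assembly factor of the large subunit that also takes part in processing of the ribosomal RNA precursor, was at 8.89, 9.04 and 8.91 in normoxia at 7 d and at 8.32, 8.67 and 8.06 in hypoxia. All hypoxia arrays were below all normoxia arrays. The effect was -0.60 (SE 0.15, 95% interval -0.91 to -0.28, limma adjusted p = 0.3365), with differences of -0.57, -0.37 and -0.85 in the lines. The call at the study's thresholds was lost without H9, without HS401 and with the lower quartile of the array as a covariate, where the effect was -0.61, -0.47 and -0.55. Its promoter is shown because NIP7 had the largest effect of the 36 genes. The 250 bases before the start hold no CACGTG and hold CTTCCGG, the reverse complement of the ETS-type motif CCGGAAG, which begins at base -195 relative to the start (in capitals).
NIP7 (chr16:69339522-69339771, plus strand): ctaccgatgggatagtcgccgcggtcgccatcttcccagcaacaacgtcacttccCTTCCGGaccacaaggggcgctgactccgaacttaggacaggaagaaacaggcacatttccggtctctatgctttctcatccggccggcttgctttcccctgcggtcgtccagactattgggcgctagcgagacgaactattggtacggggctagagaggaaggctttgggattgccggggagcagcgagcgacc
CCGGAAG stood on either strand in 8 of the 29 windows (27.6%), in 10.7% of all RefSeq windows, in 14.4% of those of genes on the array and in 39 of 80 (48.8%) of those of the other ribosome biogenesis genes. No match to CACGTG says only that these letters are not in the window.

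The other genes of the large subunit had effects at 7 d on both sides of 0, with a median over all 10 of -0.19. NOP2, an RNA methyltransferase of the large subunit, was at 9.11, 9.12 and 9.34 in normoxia and at 8.87, 8.89 and 8.91 in hypoxia. The groups did not overlap, and the effect of -0.30 passed neither threshold (SE 0.11, limma adjusted p = 0.5433). NOP16, an assembly factor of the same particles, was at 8.17, 8.42 and 8.67 against 7.76, 8.47 and 8.15, with overlap and an effect of -0.29. WDR12, BOP1 and PES1 form the PeBoW complex, which is needed for maturation of the large subunit, and their effects were -0.25, 0.22 and 0.01. BOP1, named after its values were seen, was at 8.73, 8.69 and 8.69 in normoxia and at 9.16, 8.79 and 8.82 in hypoxia. Its hypoxia arrays all lay above its normoxia arrays, and the 95% interval of its effect was -0.07 to 0.51. The effects of the remaining large subunit factors were -0.24 for the helicase DDX18, -0.14 for RRS1, -0.12 for RRP1B and 0.10 for PPAN.

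Of the 3 RNA polymerase I genes all had effects below 0 at 7 d and none passed. POLR1A, the largest subunit of the enzyme, was at 8.66, 8.61 and 8.63 in normoxia and at 8.27, 8.51 and 8.39 in hypoxia, without overlap, and its effect was -0.24. POLR1B, the second largest subunit, was at 7.70, 7.81 and 7.68 against 7.22, 7.68 and 7.70, with overlap and an effect of -0.20. The effect of POLR1C, a subunit shared with RNA polymerase III, was -0.09.

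The 7 snoRNP genes had a median effect of -0.10 at 7 d, from -0.44 to 0.11, and none passed. NOP58 and NOP56 are core proteins of the box C/D snoRNPs, which guide ribose methylation. NOP58 was at 9.89, 9.84 and 9.78 in normoxia and at 9.13, 9.56 and 9.51 in hypoxia, without overlap, and its effect was -0.44 (SE 0.21). NOP56, named after its values were seen, was at 11.04, 11.33 and 10.63 against 10.62, 10.96 and 10.19, lower in each line though the groups overlapped, and its effect was -0.41 (SE 0.15, limma adjusted p = 0.5772). FBL, the methyltransferase of the same particles, had an effect of 0.11, and RRP9, the U3-specific protein, one of 0.03. Of the box H/ACA proteins, which serve pseudouridylation, DKC1 was at 0.01 and NHP2 at -0.10, and the effect of NOLC1, a chaperone of snoRNPs, was -0.14.

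The 10 small subunit genes had a median effect of -0.11 at 7 d, from -0.38 to 0.03, and none passed. UTP20, a large scaffold protein of the small subunit processome, was at 7.72, 8.65 and 7.95 in normoxia and at 7.19, 8.18 and 7.81 in hypoxia. PNO1, a factor of late cytoplasmic and nuclear maturation, was at 7.70, 7.66 and 7.99 against 6.94, 7.59 and 7.67. Both were lower in hypoxia in every line while the groups overlapped, and both effects were -0.38. HEATR1 and WDR75, which also support transcription by RNA polymerase I, had effects of -0.24 and -0.23, and WDR43, of the same complex, one of -0.14. RRP12 stood at -0.08, BYSL at -0.01, TSR1 at 0.00, and NOP14 and the endonuclease NOB1 at 0.03.

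The 6 abundant nucleolar proteins and regulators were the role group with the highest median at 7 d, 0.04, from -0.17 to 0.18, and none passed. NPM1, a histone chaperone and the main protein of the granular part of the nucleolus, was at 9.91, 9.78 and 10.01 in normoxia and at 10.22, 10.10 and 9.92 in hypoxia. It was higher in H9 and HS360 and lower in HS401, with an effect of 0.18. NPM1 has many processed pseudogenes and PPAN a read-through transcript with its neighbour P2RY11, and how far their probes are specific was not tested. NCL (nucleolin) differed by -0.17, -0.20 and 0.85 in the lines, so that its effect of 0.16 was above 0 through HS401 alone. The helicase DDX21 had an effect of 0.18, GNL3 (nucleostemin) -0.08, MYBBP1A -0.10 and LYAR -0.17.

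**Figure D2:**
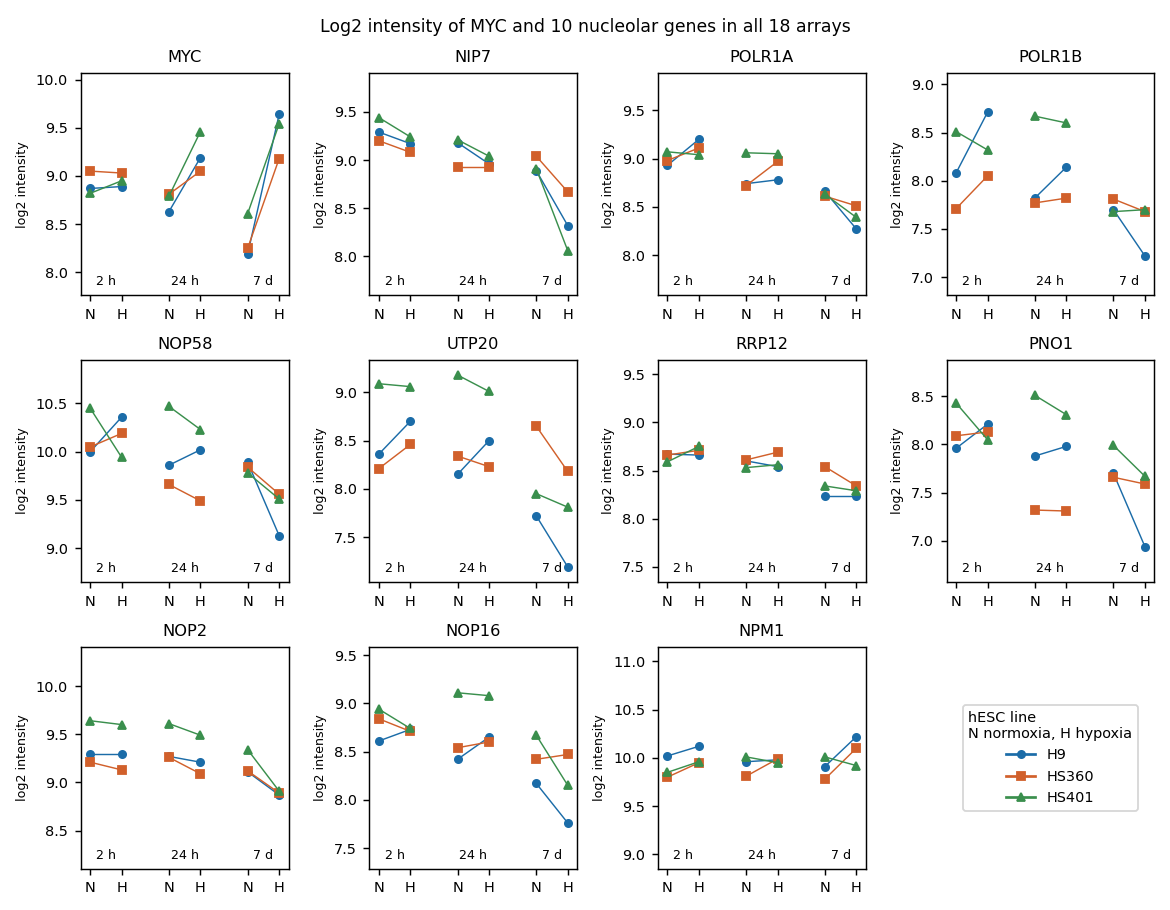
Log2 intensity in all 18 arrays of MYC and of the 10 nucleolar genes that passed a threshold in a main comparison or had the largest effect at 7 d in their role group. N is normoxia, H is hypoxia, lines join the arrays of 1 hESC line at 1 time point, and each panel spans the same log2 range around its own centre. At 7 d MYC is higher in H in all 3 lines and NIP7 lower.

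The highest upper bound of a 95% interval among the 36 effects at 7 d was 0.75, in NCL, whose difference was above 0 in HS401 alone. All other upper bounds were lower. The lower bound of MYC was 0.79, and how a change of MYC mRNA relates in size to changes of these genes was not tested. Among the promoters with CACGTG the median effect at 7 d was -0.06 and 4 of 10 were above 0. Among those without it the median was -0.10 and 7 of 19 were above 0. Over the mean of the 3 time points the 36 genes had a median effect of -0.04, and none was called higher or lower, beside 0.174% and 0.0085% of all features, with 2 lower and none higher at an unadjusted p under 0.05 (1.47% and 2.83%). The adjusted p was passed by none and by 0.11% of all features, and 14 of 36 were above 0, beside 50.5%. Without HS401 the median over the mean of the time points was 0.00 and 19 of 36 were above 0, and without H9 none was lower at an unadjusted p under 0.05. Without the arrays of low lower quartile, where the HS360 array alone stood for hypoxia at 24 h, this median was -0.075 and 12 of 36 were above 0. MYC was at 0.55 in the same comparison (limma adjusted p = 0.02513, between 0.007439 and 0.9689 under the 13 alternatives).

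The 9 pairs of cultures, 1 for each line and time point, show the mRNA of MYC and of the 36 genes side by side. On the paper's western blots MYC protein was already higher after 2 h of hypoxia, and total MYC protein stayed higher later. The arrays do not measure protein. At 2 h MYC differed by 0.02, -0.02 and 0.13 between hypoxia and normoxia, and the median difference of the 36 genes was 0.10, 0.06 and -0.14. At 24 h MYC differed by 0.56, 0.24 and 0.67, and the median of the 36 genes by 0.04, -0.03 and -0.12. At 7 d MYC differed by 1.45, 0.93 and 0.93 and the median of the 36 genes by -0.12, -0.07 and -0.15. MYC was thus higher in hypoxia in 8 of 9 pairs, by only 0.02 in H9 at 2 h, and the median of the nucleolar genes in 3 of 9. The median over all features differed by amounts of similar size: -0.12, -0.01 and 0.12 at 2 h, -0.15, 0.05 and 0.02 at 24 h, and 0.14, 0.05 and -0.02 at 7 d. The part of such shifts of whole arrays in the medians of the 36 genes was not tested. In the H9 pair with the largest difference of MYC 14 genes were higher and 21 lower, and in HS401 at 7 d 7 were higher and 29 lower. Of the 9 pairs, 5 hold no array of low lower quartile (all 3 of HS360 and those of H9 and HS401 at 7 d). Among these 5 MYC was higher in hypoxia in 4 and the median of the nucleolar genes was above 0 in 1. The pairs of 1 line share their source, and no test was made over them.

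**Figure D3:**
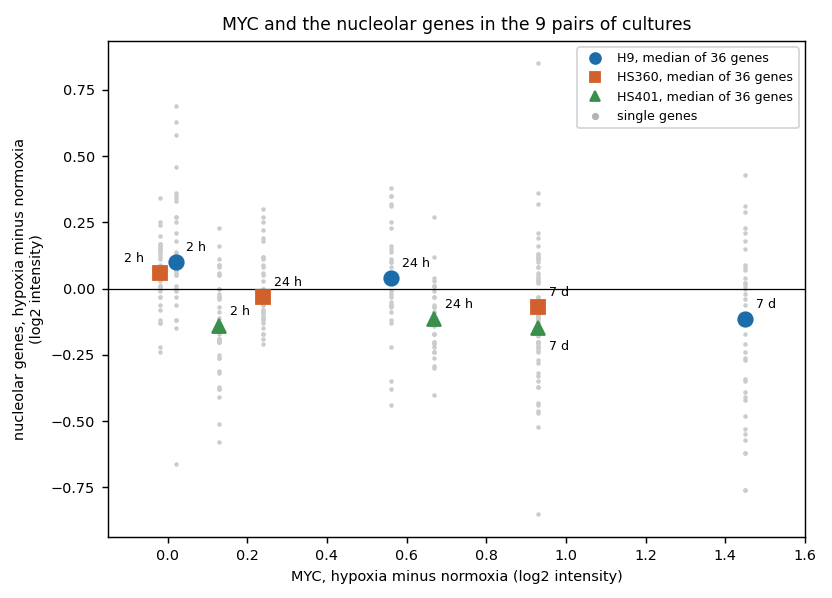
Difference of MYC (x axis) and of the nucleolar genes (y axis) between hypoxia and normoxia, both in log2 intensity, in the 9 pairs of cultures. Grey dots are single genes, coloured symbols their median in each pair, with the time point beside them. The medians stay between -0.15 and 0.10 while MYC spans -0.02 to 1.45.

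The larger differences lay between 2 h and 7 d. In hypoxia 7 of 36 genes fell from 2 h to 7 d at the study's thresholds and none rose, beside 2.45% of all features lower and 1.82% higher. At the adjusted p 4 were lower and none higher, beside 1.64% of all features lower and 3.23% in either direction. At an unadjusted p under 0.05, 19 were lower, beside 8.27%, and 1, FBL, was higher, beside 10.7%. Without H9 the number of lower genes at that p was 5, without HS360 21, without HS401 18 and without the arrays of low lower quartile 16. In these fits the share of all features at that p was not counted. The median change was -0.37, from -1.01 to 0.44, and 6 of 36 were above 0, where all features had a median of 0.13 with 66.6% above 0 and those above the median level one of 0.04. In normoxia the median change was -0.24 and 5 of 36 were above 0, against a median of 0.06 with 64.3% above 0 over all features. None of the 36 passed the adjusted p in normoxia, beside 1.21%, or the study's thresholds, beside 1.66% of all features lower and 0.96% higher. At an unadjusted p under 0.05, 9 were lower, beside 4.8%, and none higher, beside 6.28%. This count of lower genes was 2 without H9, 12 without HS360, 1 without HS401, 5 with no replicate block and 4 without the arrays of low lower quartile, where the median change was -0.18. For these fits too the share of all features was not counted.

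**Figure D4:**
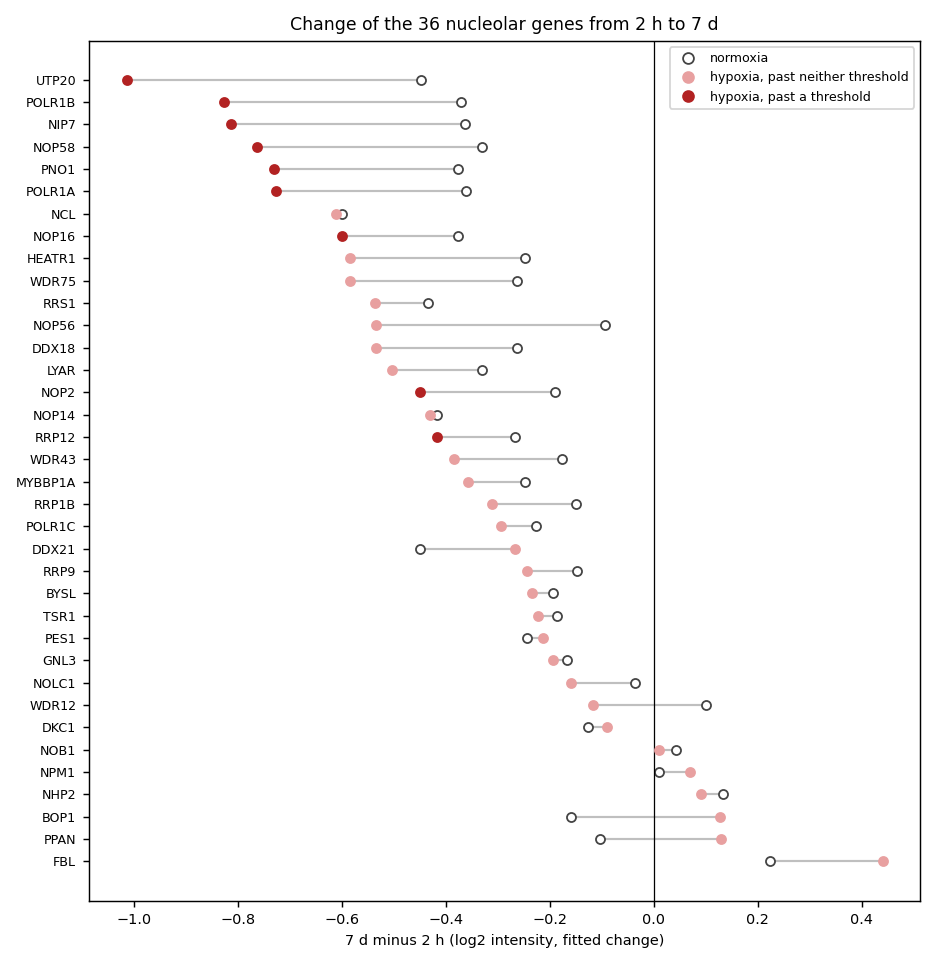
Fitted change from 2 h to 7 d in log2 intensity for the 36 nucleolar genes, in normoxia (open circles) and in hypoxia (filled circles, dark where the gene passed the study's thresholds or the adjusted p). Genes are ordered by the change in hypoxia, from -1.01 in UTP20 to 0.44 in FBL, and 30 of 36 lie below 0 in hypoxia and 31 of 36 in normoxia.

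POLR1A had the smallest adjusted p of the 36 genes in this comparison. In hypoxia it was at 9.20, 9.11 and 9.04 at 2 h and at 8.27, 8.51 and 8.39 at 7 d, without overlap, a change of -0.73 (SE 0.12, limma adjusted p = 0.007208). In normoxia it was at 8.93, 8.98 and 9.07 at 2 h and the change was -0.36 (limma adjusted p = 0.1969). POLR1B was at 8.71, 8.05 and 8.32 at 2 h in hypoxia and changed by -0.83 (limma adjusted p = 0.0611), and the change of the 3 RNA polymerase I genes had a median of -0.73 in hypoxia and of -0.36 in normoxia.

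NIP7 was at 9.17, 9.08 and 9.24 at 2 h in hypoxia and fell by 0.81 to 7 d (SE 0.15, limma adjusted p = 0.01122). In normoxia it was at 9.29, 9.20 and 9.44 at 2 h, and its change was -0.36. NOP2, at 9.29, 9.13 and 9.60 at 2 h in hypoxia, fell by 0.45 (SE 0.11, limma adjusted p = 0.03781). RRP12, which acts in export and maturation of both subunits, was at 8.66, 8.71 and 8.75 at 2 h and at 8.24, 8.34 and 8.29 at 7 d in hypoxia and fell by 0.42 (SE 0.10, limma adjusted p = 0.03774). In each of the 3 genes the hypoxia arrays of 2 h lay above those of 7 d. Of 13 alternatives the adjusted p was under the threshold in 9 for POLR1A, 9 for NIP7, 7 for RRP12 and 5 for NOP2, with highest values of 0.2938, 0.3045, 0.527 and 0.5123. Without H9 2 of the 36 genes fell at the study's thresholds in place of 7, beside 1.36% of all features in that fit, and none passed the adjusted p. Without HS360 the count at the adjusted p was 2 and without HS401 it was 0.

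At the study's thresholds 4 more genes fell in hypoxia besides POLR1A, POLR1B and NIP7, although their adjusted p stayed above the threshold. UTP20 was at 8.70, 8.46 and 9.06 at 2 h and changed by -1.01 (SE 0.28, limma adjusted p = 0.06338). NOP58 was at 10.36, 10.19 and 9.94 at 2 h and changed by -0.76, PNO1 was at 8.21, 8.13 and 8.05 and changed by -0.73, and NOP16 was at 8.73, 8.71 and 8.74 and changed by -0.60. In all 4 the groups of 2 h and 7 d did not overlap in hypoxia. NPM1, at 10.12, 9.95 and 9.96 at 2 h, had a change of 0.07, which turned to -0.01 once each array was centred on its median.

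FBL was the gene with the largest change above 0 and was named after its values were seen. It was at 10.31, 10.18 and 10.54 at 2 h and at 10.71, 10.96 and 10.68 at 7 d in hypoxia, without overlap, and its change of 0.44 passed neither threshold (limma adjusted p = 0.1072). In normoxia, at 10.46, 10.42 and 10.46 against 10.48, 10.75 and 10.78, its groups did not overlap either. No other of the 36 genes had all 7 d arrays above all 2 h arrays, in either oxygen level. Over all features 15.2% had this in hypoxia and 6.47% in normoxia. In hypoxia 19 genes had all 7 d arrays below all 2 h arrays, beside 7.0% of all features, and in normoxia 10 had, beside 4.42%.

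The change over time did not differ between oxygen levels in any of the 36 genes at the adjusted p, which no feature passed, or at the study's thresholds, beside 0.285% of all features higher and 0.161% lower. The difference of the hypoxia effect between 7 d and 2 h, which is also the difference of the 2 changes over time, had a median of -0.12 and was above 0 in 7 of 36 genes, beside 59.2% of all features. At an unadjusted p under 0.05 it was below 0 in 2 of them, POLR1A (-0.37) and NIP7 (-0.45), both at a limma adjusted p of 0.9974, beside 1.53% of all features, and above 0 in none, beside 1.56%. Between 24 h and 2 h no gene passed a threshold in either oxygen level, and the median change was -0.04 in normoxia and -0.10 in hypoxia (beside 0.0085% of all features higher and 0.0% lower in normoxia and 0.157% and 0.0255% in hypoxia).

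The fibroblast markers moved with the change from 2 h to 7 d. Their median change was -1.51 in normoxia, with 8 of 10 lower at the study's thresholds, beside a median of 0.06 and 1.66% lower over all features. In hypoxia it was -0.85, with 6 lower, beside 0.13 and 2.45%. At 7 d their median hypoxia effect was 0.44, beside 0.06 over all features. COL1A1 and COL3A1, both at 0.63, were called higher at the study's thresholds, beside 0.51% of all features. By line the list's median effect at 7 d was 0.53, -0.18 and 0.92, so that HS360 ran the other way. The mean of this list was at 8.59 to 8.66 on the normoxia arrays of 7 d and at 8.43 to 9.38 on the hypoxia arrays. The 8 proliferation genes had a median hypoxia effect of -0.24 at 7 d, none past a threshold, with PCNA at -0.55 and MCM2 at -0.32, and their mean lay at 9.66 to 9.76 in normoxia and 9.33 to 9.69 in hypoxia. From 2 h to 7 d they had a median change of 0.28 in normoxia and 0.16 in hypoxia, none past a threshold. The hESC markers had a median hypoxia effect of -0.18 at 7 d, with 4 of 10 above 0, beside 61.4% of all features, and none called. From 2 h to 7 d their median change was -0.08 in normoxia and -0.39 in hypoxia. At the study's thresholds 2 of 10 were lower in hypoxia, beside 2.45% of all features. The part of these in the values of the nucleolar genes was not tested, and in RNA of whole cultures fewer cells of a kind and less RNA per cell cannot be told apart. Of the arrays compared over time in hypoxia, H9 at 2 h had the low lower quartile. Without the 5 such arrays the median change of the 36 genes in hypoxia was -0.32, and 5 were called lower at the study's thresholds, beside 1.94% of all features in that fit, with 1 past the adjusted p in either direction. With the lower quartile as a covariate 3 were called lower, beside 1.87%, and 11 passed the adjusted p in either direction.

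Between the hESC lines 4 of the 36 genes differed at the adjusted p of limma's F test, beside 15.1% of all features, and 11 at an unadjusted p under 0.05, beside 32.7%. NCL had mean levels of 10.50, 10.39 and 11.33 in the 3 lines (limma adjusted p = 0.007501). In HS401 it was at 11.70, 11.39, 11.68 and 11.65 on the arrays of 2 h and 24 h, normoxia before hypoxia, and at 10.35 and 11.20 at 7 d. LYAR had means of 8.48, 8.17 and 8.83 (limma adjusted p = 0.01549), NOP2 of 9.17, 9.12 and 9.43 (limma adjusted p = 0.02304) and WDR75 of 9.07, 8.88 and 9.53 (limma adjusted p = 0.04853). All 4 were highest in HS401, which holds 3 of the 5 arrays with a low lower quartile, while H9 holds 2 and HS360 none. Without these arrays no gene of the 36 passed, beside 4.77% of all features in place of 15.1%. That fit holds fewer arrays of HS401 and H9, and the part of their smaller number in this loss was not tested. The hypoxia effect over the 3 time points differed between the lines in none of the 36 genes, neither at the adjusted p nor at an unadjusted p under 0.05, beside 0% and 1.59% of all features.

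The other genes of the pathway were read from a list of 90 further ribosome biogenesis factors and 11 further genes of RNA polymerase I transcription. At 7 d the 90 factors had a median hypoxia effect of -0.13, with 21 (23.3%) above 0 and 1 called lower, beside 61.4% of all features above 0 and 0.357% lower. This was DDX52, a helicase of the small subunit, at 8.63, 8.94 and 8.38 in normoxia and at 7.59, 8.29 and 7.48 in hypoxia, with an effect of -0.86 (SE 0.21, limma adjusted p = 0.3163). In hypoxia from 2 h to 7 d their median change was -0.31, and 13 of 90 fell at the study's thresholds and none rose, beside 2.45% and 1.82% of all features. At the adjusted p 6 were lower, beside 1.64%. UTP14A, of the small subunit processome, was at 8.36, 8.01 and 8.06 at 2 h and at 7.00, 7.02 and 6.58 at 7 d and fell by 1.28 (limma adjusted p = 0.005618). DDX52 fell by 1.09 and RRP36 by 0.82 in the same comparison. In normoxia UTP14A (-0.69) and RRP36 (-0.60) were the 2 of 90 called lower, beside 1.66% of all features. At 2 h and 24 h none of the 90 was called, and their median effects were 0.00 and -0.03.

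Of the 11 further RNA polymerase I genes none was called at 7 d, with a median effect of -0.10. UBTF, which binds ribosomal DNA and opens it for the polymerase, and the initiation factor RRN3 had the smallest p, with effects of -0.31 and -0.20. From 2 h to 7 d in hypoxia UBTF fell by 0.56 (limma adjusted p = 0.04976), and it was the 1 gene of this list past the adjusted p. Of 10 genes of the MYC network, 9 had an effect above 0 at 7 d, beside 61.4% of all features. MYC was the one called, beside 0.51% of all features called higher. The repressors MXD1 and MXI1, which compete with MYC for MAX, were at 0.46 and 0.40, MAX at 0.18, MYCN at 0.02 and MGA at -0.45, none of these past a threshold.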

How the data were processed

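RNA of 18 cultures was hybridised to Human Exon 1.0 ST arrays. Per the study's methods and the submitters' processing notes, the authors ran RMA (background correction, quantile normalization and summarization) in Chipster after re-annotating the probes to Entrez genes, and deposited linear intensity values. Versions are not given in the sources used here. Log2 of these values falls on steps of 0.01, so they were probably rounded on that scale. Features were named from the platform annotation (20727) or by Entrez ID through the RefSeq table (637, GNL3 and DDX18 among them), and 2172 stayed unnamed. The members and lists were chosen with earlier results of these data known.

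All 23536 features were fitted with limma 3.58.1 in R 4.3.3, with 6 group means and a fixed term for the hESC line as block (10 residual and 4.24 prior degrees of freedom). Pairing comes from the line: deviations from the group means of its normoxia and hypoxia arrays were correlated above 0.1 in 8 of 9 pairs (-0.00534 to 0.776). Because the methods name limma but no block, the fit without it was an alternative. Benjamini-Hochberg adjustment covered every feature (threshold 0.05), beside the thresholds of the study (fold change over 1.5 and p under 0.01, applied to the unadjusted p since the methods do not say which). The fit was tested on simulated data. Values in every array are given for MYC, for members past either threshold in a main comparison, up to 12 by size of change, and for the member with the largest effect at 7 d in each role group. From other lists up to 4 genes past the thresholds at 7 d, or otherwise 2 with the smallest p, were to be named; UTP14A, RRP36, MXD1, MXI1, MAX, MGA and MYCN were added after their values were seen. Promoter windows were read from RefSeq (GRCh38.p14). Tables and figures were made with Python 3.11.15, pandas 2.3.3 and matplotlib 3.10.9.

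Alternatives were no block, the line as a random block, line and time as a block, the compared groups alone, a second quantile normalization, median centring, features above the median level, named features alone, eBayes with trend and robust, the lower quartile as a covariate, leaving out the 5 arrays with a low lower quartile, and leaving out each line. The line comparison without these arrays was added after the data were seen.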

Additional observations from a re-analysis of the deposited data

How the results depend on the processing

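Of the alternative values of the summary results 300 stayed within their limits and 25 moved. For a median the limit was the standard deviation of the 3 line medians, so a median near 0 could change sign and stay. A count stayed if it was 0 in both fits or within a fixed ratio of the main count. Many of the 300 were counts of 0 in both fits, so this number is no measure of how firm the results are. At 24 h the median hypoxia effect of the 36 genes was -0.14 without the 5 arrays of low lower quartile, where the HS360 array alone stood for hypoxia. At 7 d it was -0.15 (-0.152) with median centring, -0.05 with the lower quartile as a covariate, and -0.15 to -0.085 with 1 line left out, so it stayed below 0. The count of genes lower in hypoxia at 7 d, 1 with all arrays, was 0 with the covariate, beside 0.31% of all features. With 1 line left out it was 0 to 1, beside 0.212% to 0.705%. From 2 h to 7 d in normoxia the count at the adjusted p rose from 0 to 1 with a second quantile normalization, with features above the median level alone and with the covariate. The count lower at the study's thresholds there was 0 to 2 with 1 line left out, beside 1.36% to 1.46% of all features. In hypoxia the median change was -0.475 to -0.232 with 1 line left out. The count at the adjusted p, 4 with all arrays, was 2 with no replicate block, 0 with only the groups compared, 11 with a second quantile normalization, 12 with features above the median level alone, 9 with trend and robust, 11 with the covariate, 1 without the low arrays and 0 to 2 with 1 line left out. The share of all features at the adjusted p was not counted in these alternatives, so how far the whole array moved with the 36 genes is not known. The count lower at the study's thresholds, 7 with all arrays, was 3 with the covariate, beside 1.87% of all features. With 1 line left out it was 2 to 9, beside 1.36% to 3.18%. With no replicate block it was 5, beside 1.71% of all features, and the count lower in hypoxia at 7 d stayed at 1, beside 0.2%. The 4 genes that differed between lines became 0 without the low arrays, while the share of all features fell from 15.1% to 4.77%. Of the values for single genes 273 kept their direction and their side of the threshold, 22 lost a call, 1 gained one and 1, NPM1 in hypoxia from 2 h to 7 d, changed sign (-0.013 with median centring). POLR1A and NIP7 kept their call at the study's thresholds in that comparison under every alternative run, while POLR1B and NOP58 lost it without H9 and with the covariate, and UTP20 without H9, without HS401 and without the low arrays. The cause was not tested. For the mean of the time points the fit of only the groups compared is the main fit and was not run again.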
